A study of Mus musculus with 4 samples.

Results

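Glycogen phosphorylases and the enzymes that build and regulate glycogen were followed in hearts of Jun delta mu and Junf/f mice. The members are 9 genes chosen by name, the phosphorylases Pygl, Pygm and Pygb, the synthesis enzymes Gys1, Gbe1 and Gyg, and the phosphorylase kinase subunits Phka1, Phkb and Phkg1. A probe set counted for a member when the platform annotation gives it that gene symbol and no other, which left 14 probe sets for the 9 genes out of 18193 genes measured in this way. Each gene had at least 1 probe set.

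RNA of 2 Jun delta mu and 2 Junf/f hearts had been hybridized to Affymetrix expression arrays, 1 to each heart, and the mice were 10 weeks old and of mixed 129/Ola-C57BL/6 descent. Both genotypes carry floxed alleles of Jun, the gene of the AP-1 transcription factor c-Jun. Jun delta mu mice also carry Cre recombinase driven by the muscle creatine kinase promoter, which is active in striated muscle and not in the other cells of the heart. The methods give littermates as the experimental mice and name Cre for the Jun delta mu mice alone, so the loss of Jun and the presence of Cre cannot be told apart, and the labels give no treatment. The growth notes of the samples describe plated cells of digested ventricles instead, whereas the source, the descriptions and the methods all name hearts, as is done here.

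Glycogen is the store of glucose in muscle and liver. Glycogenin starts a chain, glycogen synthase lengthens it and branching enzyme adds its side chains, while glycogen phosphorylase releases glucose 1-phosphate from the ends. Phosphorylase is switched on by phosphorylase kinase, which responds to calcium and to adrenergic signals. The 3 phosphorylase genes are named for liver, muscle and brain, and the muscle and brain forms are the ones best known from the heart.

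Of the 9 genes, Pygl alone passed the threshold given below for a difference between the genotypes, and it was higher in Jun delta mu hearts. Signals are given as RMA values in log2 units. Pygl, the liver form of glycogen phosphorylase, stood at 9.11 and 8.97 on the Jun delta mu arrays, against 8.09 and 8.18 on the Junf/f arrays. The groups did not overlap, and the smallest gap between a Jun delta mu and a Junf/f array, at 0.79, was larger than the gap of 0.14 between the Jun delta mu arrays and that of 0.09 between the Junf/f arrays. The means were 9.04 ± 0.10 in Jun delta mu and 8.13 ± 0.07 in Junf/f hearts (SD, n = 2 each), a difference of 0.91 (standard error 0.10, 95% interval 0.66 to 1.15), or 1.87-fold. In what follows, the study's threshold stands for a change of over 1.3-fold at an unadjusted p under 0.05, taken from limma here in place of the test that the methods name. Pygl passed it, as did 1.53% of all probe sets, and no member reached an adjusted p under 0.05 (limma, Benjamini-Hochberg over 45037 probe sets, adjusted p = 0.896 for Pygl), nor did any probe set on the array, where the smallest adjusted p was 0.237 and 2326 probe sets had an unadjusted p under 0.05; the methods' test gave none after adjustment either. By unadjusted p, Pygl ranked 7 of the 45037 probe sets, and by the size of its increase it ranked 7 among the probe sets past the threshold. The study had itself picked Pygl from these arrays, so that its passing here is the same evidence. It also passed by the test that the methods name, as did 0.444% of all probe sets.

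Neither of the other forms passed, and both differed between the genotypes by less than the Junf/f arrays differed from each other. Pygm, the muscle form, had 12.07 and 12.09 in Jun delta mu hearts, against 12.01 and 12.10 in Junf/f hearts. Pygb, the brain form, had 12.32 and 12.37 in Jun delta mu hearts, against 12.23 and 12.33 in Junf/f hearts. The groups overlapped for both genes. The difference was 0.02 for Pygm (standard error 0.09, 95% interval -0.20 to 0.25) and 0.06 for Pygb (standard error 0.09, 95% interval -0.17 to 0.29), and neither interval reached 1.3-fold, which is 0.38 on the log2 scale. Levels of different probe sets do not compare, so the forms were compared by their change within the arrays. The log2 ratio of the Pygl to the Pygm signal was -2.96 and -3.13 on the Jun delta mu arrays, against -3.92 and -3.93 on the Junf/f arrays. Pygl thus differed between the genotypes by 0.88 more than Pygm (standard error 0.08). It differed by 0.84 more than Pygb (standard error 0.09), with Pygl to Pygb ratios of -3.22 and -3.40 on the Jun delta mu arrays, against -4.14 and -4.16 on the Junf/f arrays. Pygb and Pygm differed from each other by 0.04 in their change (standard error 0.01). For each of these 3 contrasts the exact permutation test over the arrays gave p = 0.333, two-sided, which is the smallest value that 6 splits of 4 arrays allow, and p = 0.333 adjusted over the 3. The design cannot reach p under 0.05 in this test.

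**Figure D1:**
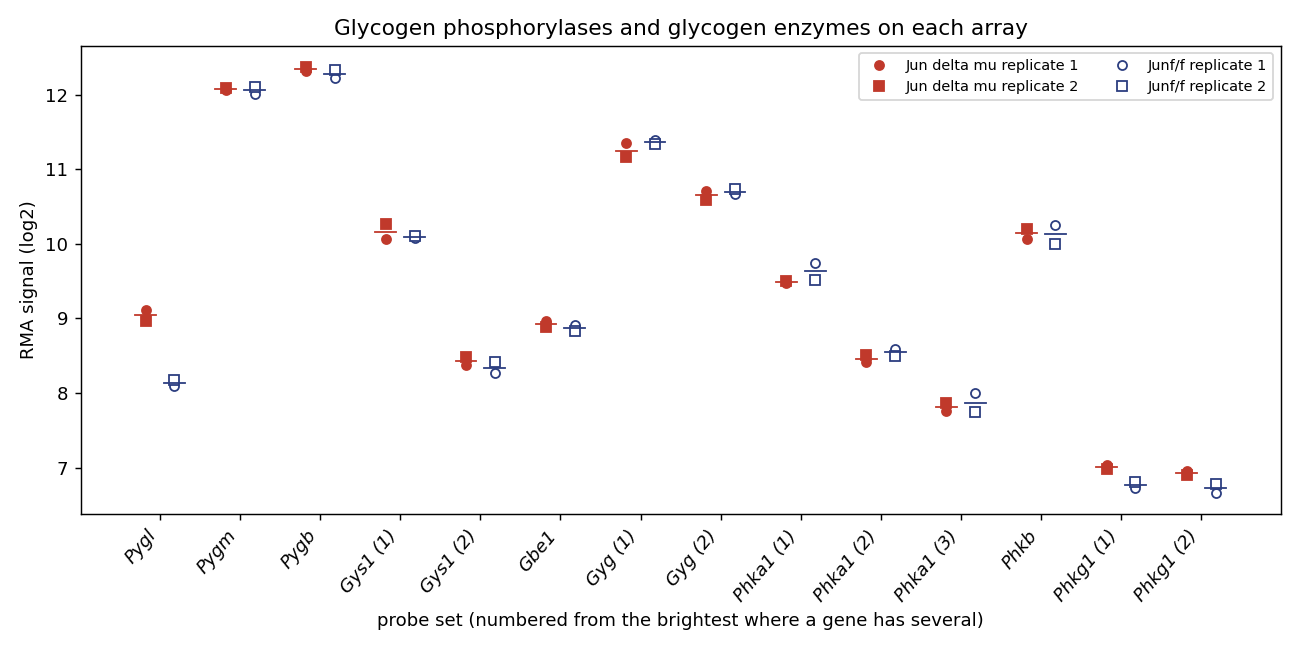
RMA signal (log2) of the 14 probe sets of the 9 genes on each array, with filled red symbols for Jun delta mu and open blue ones for Junf/f hearts (circles, replicate 1, and squares, replicate 2) and a line at each mean (n = 2 each). For Pygl the Jun delta mu hearts, at 9.11 and 8.97, lie above the Junf/f hearts, at 8.09 and 8.18. Heights of different probe sets are not comparable.

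The synthesis enzymes did not pass the threshold. Gys1, glycogen synthase of muscle, has 2 probe sets. The brighter had 10.06 and 10.27 in Jun delta mu hearts, against 10.08 and 10.11 in Junf/f hearts, and the dimmer had 8.38 and 8.48 in Jun delta mu hearts, against 8.27 and 8.41 in Junf/f hearts. Their differences were 0.07 and 0.08. Gbe1, the branching enzyme, had 8.96 and 8.88 in Jun delta mu hearts, against 8.91 and 8.83 in Junf/f hearts, a difference of 0.05 (standard error 0.09). Glycogenin (Gyg), the protein primer of the chain, had 11.35 and 11.16 in Jun delta mu hearts, against 11.40 and 11.34 in Junf/f hearts by its brighter probe set. Its differences were -0.11 (standard error 0.10) and -0.05 (standard error 0.10), and on all 5 probe sets of these 3 genes the groups overlapped.

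Phosphorylase kinase has regulatory α and β subunits and a catalytic γ subunit. Phkg1, the catalytic subunit of muscle, was the member with the next largest difference after Pygl. Its brighter probe set had 7.03 and 6.98 in Jun delta mu hearts, against 6.73 and 6.81 in Junf/f hearts, and its dimmer one 6.95 and 6.90 in Jun delta mu hearts, against 6.66 and 6.78 in Junf/f hearts. Both probe sets separated the groups, at 0.24 (standard error 0.09) and 0.20 (standard error 0.09), or 1.18- and 1.15-fold, and so stayed below the 1.3-fold of the threshold (limma, adjusted p = 0.896 for each). The name of the dimmer one marks probes that can also match other transcripts. Both probe sets were read for the same gene on the same arrays, so they are not independent measurements. Phka1, the α subunit of muscle, had 9.48 and 9.50 in Jun delta mu hearts, against 9.74 and 9.52 in Junf/f hearts by its brightest probe set, a difference of -0.14 (standard error 0.11). Its groups narrowly did not overlap there, and they overlapped on its other 2 probe sets, at -0.09 and -0.06. Phkb, the β subunit, had 10.07 and 10.20 in Jun delta mu hearts, against 10.26 and 10.00 in Junf/f hearts, and differed by 0.01 (standard error 0.12).

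Counted over the 14 probe sets, 1 was higher past the study's threshold and 13 did not pass, against 0.568% of all 45037 probe sets as higher and 0.959% as lower. An unadjusted p under 0.05 was reached by 2 of the 14, of Pygl and Phkg1, against 5.16% of all. Phkg1 did not reach it with a replicate block, with a trended robust prior or without either Jun delta mu array or Junf/f replicate 1. The groups did not overlap on 4 of the 14, or 28.6%, 3 higher and 1 lower, against 33.9% of all probe sets, 17.3% higher and 16.7% lower, so that separation of the groups was no more frequent among the members than on the whole array. The median difference was 0.04 over the members and 0 over all probe sets, and the median size of a difference was 0.08 over the members and 0.09 over all probe sets. Of the 13 probe sets other than that of Pygl, the differences ran from -0.14 to 0.24, and for 10 the 95% interval lay within 1.3-fold in either direction. For the other 3, of Phka1 and Phkg1, a difference of that size was not excluded by the interval.

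**Figure D2:**
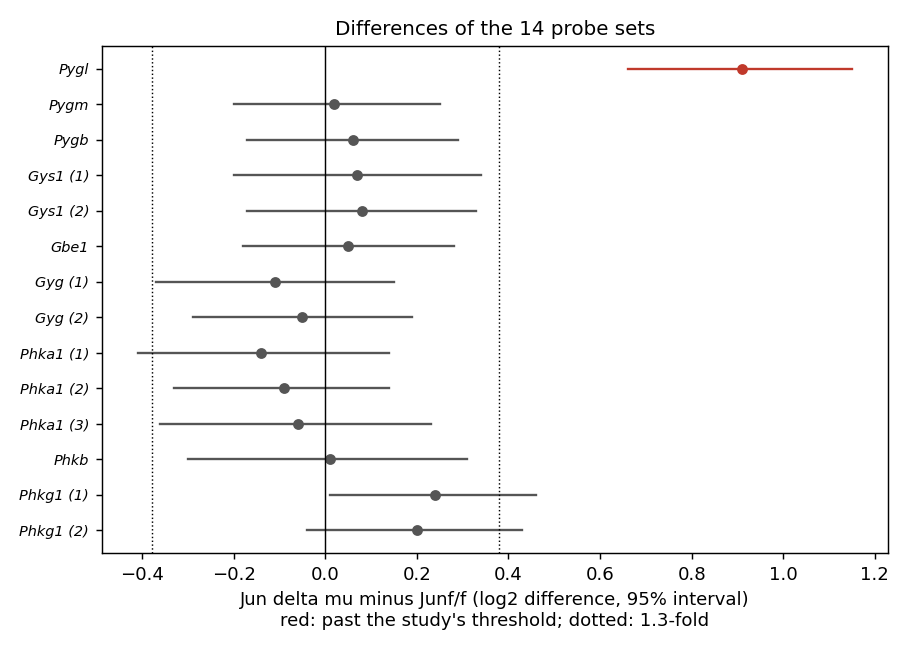
Difference of Jun delta mu minus Junf/f hearts (log2) of each of the 14 probe sets, with points at the limma estimate, bars for the 95% interval and dotted lines at 1.3-fold (n = 2 per genotype). Pygl, in red, lies at 0.91 with an interval of 0.66 to 1.15, and the other 13 probe sets lie between -0.14 and 0.24.

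The level of the targeted gene followed the labels. Jun had 6.58 and 6.86 in Jun delta mu hearts, against 7.78 and 8.15 in Junf/f hearts by its dimmer probe set, a difference of -1.24, and the brighter probe set differed by -1.57, with no overlap of the groups on either. Median signals of the arrays lay between 5.45 and 5.47. Junf/f replicate 1 stood somewhat apart, with correlations of 0.994 to 0.995 with the other arrays across probe sets. Without it the difference of Pygl was 0.86. In whole hearts, more cells of a type and more RNA per cell cannot be told apart. The 8 markers of cardiomyocytes, among them Myh6 and Actc1, averaged 14.17 and 14.19 in Jun delta mu hearts, against 14.21 on both Junf/f arrays. None passed. The largest differences among them were -0.23 for Tnnc1 and 0.14 for Ryr2, both with the groups apart. The part of cardiomyocytes in the result was not tested. Of the other lists, the 4 markers of smooth muscle had a median difference of -0.49 and averaged 7.39 and 7.80 in Jun delta mu hearts, against 8.24 and 7.95 in Junf/f hearts. Cnn1 of that list passed as lower, at -0.67. Casq1 also passed as lower, at -1.52, as 1 of 9 skeletal muscle markers. The median difference of those 9 was -0.03, and Tnni2 among them was higher with the groups apart, at 0.34. Of 2 red blood cell markers, Alas2 passed as lower, at -0.49, while Hba-a1 differed by -0.01. The part of these cells in the result was not tested. Pygl is also made by liver, white blood cells and fat. Albumin, the defining protein of liver, was at 3.90 and 4.20 in Jun delta mu hearts, against 3.93 and 4.34 in Junf/f hearts. These values lie below the median of the array. The 6 liver markers averaged 4.78 and 4.87 in Jun delta mu hearts, against 4.79 and 4.85 in Junf/f hearts, and none passed the threshold. Ttr and Apoa1 were higher with the groups apart, at 0.22 and 0.08, and Fgb was lower with the groups apart, at -0.14. The part of liver cells in the result was not tested. The 8 markers of neutrophils and macrophages averaged 7.87 and 7.23 in Jun delta mu hearts, against 7.44 and 7.66 in Junf/f hearts, and none passed. Of these, the neutrophil gene S100a8 was at 8.91 and 6.65 in Jun delta mu hearts, against 7.33 and 8.43 in Junf/f hearts, while the macrophage gene Lyz2 was at 11.42 and 11.57 in Jun delta mu hearts, against 11.42 and 11.48 in Junf/f hearts. Ngp of this list was higher with the groups apart, at 0.13, whereas S100a8 differed by -0.10 and S100a9 by 0.07 with the groups overlapping. The median difference of the 8 was -0.01. The part of white blood cells in the result was not tested. The 5 adipocyte markers averaged 6.42 and 6.34 in Jun delta mu hearts, against 6.16 and 6.38 in Junf/f hearts. None passed, and their median difference was 0.03. The fat cell hormone Adipoq was at 5.40 and 4.96 in Jun delta mu hearts, against 4.40 and 4.93 in Junf/f hearts, below the median of the array. Of the others, Cidec differed by 0.10, Lep by 0.03, and Retn and Fabp4 by -0.04 each, all with the groups overlapping. The part of fat cells in the result was not tested. Genes of atrial muscle stood out on Jun delta mu replicate 2, where Sln was at 8.11 against 3.81 to 4.15 on the others and Myl7 at 9.11 against 4.88 to 5.51. Myl4 was higher with the groups apart, at 6.03 and 9.02 in Jun delta mu hearts, against 5.69 and 5.93 in Junf/f hearts. Nppa differed by 0.42 with the groups overlapping. The median difference of these 4 atrial markers was 1.79, and none passed. The difference of Pygl was 0.98 without Jun delta mu replicate 2. The part of atrial muscle in the result was not tested.

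Other genes of glycogen metabolism came from a list of 41, of which 37 had a probe set of their own. By the brightest probe set of each gene, 1 was lower past the study's threshold, none was higher and 36 did not pass, against 1.45% of 18193 genes measured in this way. The groups did not overlap for 5 genes as higher and 6 as lower, 11 of 37, against 33.7% of all genes. The gene that passed was Nhlrc1, which encodes malin, the ubiquitin ligase that acts with the phosphatase laforin and whose loss in humans leads to Lafora bodies, deposits of abnormal glycogen. Nhlrc1 had 6.66 and 6.49 in Jun delta mu hearts, against 7.15 and 6.87 in Junf/f hearts. The groups did not overlap, and the difference was -0.43 (standard error 0.13, limma, adjusted p = 0.896). It failed the threshold with the test of the methods, without Jun delta mu replicate 2, at -0.35, and without Junf/f replicate 1, at -0.30. Laforin itself (Epm2a) was at 4.57 and 4.94 in Jun delta mu hearts, against 5.09 and 4.65 in Junf/f hearts, which is below the median of the array. Its binding partner Epm2aip1 had 9.41 and 9.43 in Jun delta mu hearts, against 9.77 and 9.79 in Junf/f hearts by its brightest probe set. The groups were apart, and the difference of -0.36 was less than 1.3-fold. Its other probe sets differed by -0.31 and -0.22 with the groups apart and by -0.04 with the groups overlapping.

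Glucose enters the pathway through a transporter and a hexokinase. Hk1, the hexokinase of most tissues, had 10.71 on both Jun delta mu arrays, against 10.30 and 10.44 on the Junf/f arrays. Its other probe set had 10.36 and 10.26 in Jun delta mu hearts, against 9.84 and 10.08 in Junf/f hearts. Both separated the groups, at 0.34 and 0.35, or 1.27- and 1.28-fold, just short of the threshold. Hk2, the insulin-regulated hexokinase of muscle, differed by -0.03, and the glucose transporters Slc2a4 and Slc2a1 by 0.08 and 0.24. The groups overlapped for both transporters there. Other probe sets of Slc2a1 differed by 0.20 and 0.15 with the groups apart, and that of Slc2a4 by -0.04 with the groups overlapping. Among the enzymes that supply UDP-glucose, Ugp2 differed by -0.02, Pgm1 by 0.00 and Pgm2 by 0.06, and the liver glycogen synthase Gys2 was near the background of the array, at 4.08 and 4.18 in Jun delta mu hearts, against 4.25 and 4.05 in Junf/f hearts. The other phosphorylase kinase subunits, Phka2 of liver and Phkg2 of liver and testis, differed by 0.08 and -0.03. Other probe sets of Phka2, below the median of the array, differed by 0.23 with the groups apart and by 0.04 with the groups overlapping. Protein phosphatase 1 reverses the action of the kinase. By the brightest probe set of each, its catalytic subunits differed by 0.01 for Ppp1ca, 0.06 for Ppp1cb and 0.10 for Ppp1cc. Other probe sets of Ppp1cb differed by 0.22 and 0.17 with the groups apart and by -0.14 with the groups overlapping. Ppp1r3a, the muscle glycogen-targeting subunit of the phosphatase, differed by 0.03. It lay near the median of the array, at 5.55 and 5.41 in Jun delta mu hearts, against 5.53 and 5.35 in Junf/f hearts. Of the kinases, Gsk3a, Gsk3b, Prkaa1 and Prkaa2 differed by -0.01, 0.05, -0.07 and 0.01, and none of 11 passed. Median differences of the 6 groups in this list lay near 0 except for laforin and malin, at -0.36 over 3 genes, and glucose entry, at 0.16 over 4.

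**Figure D3:**
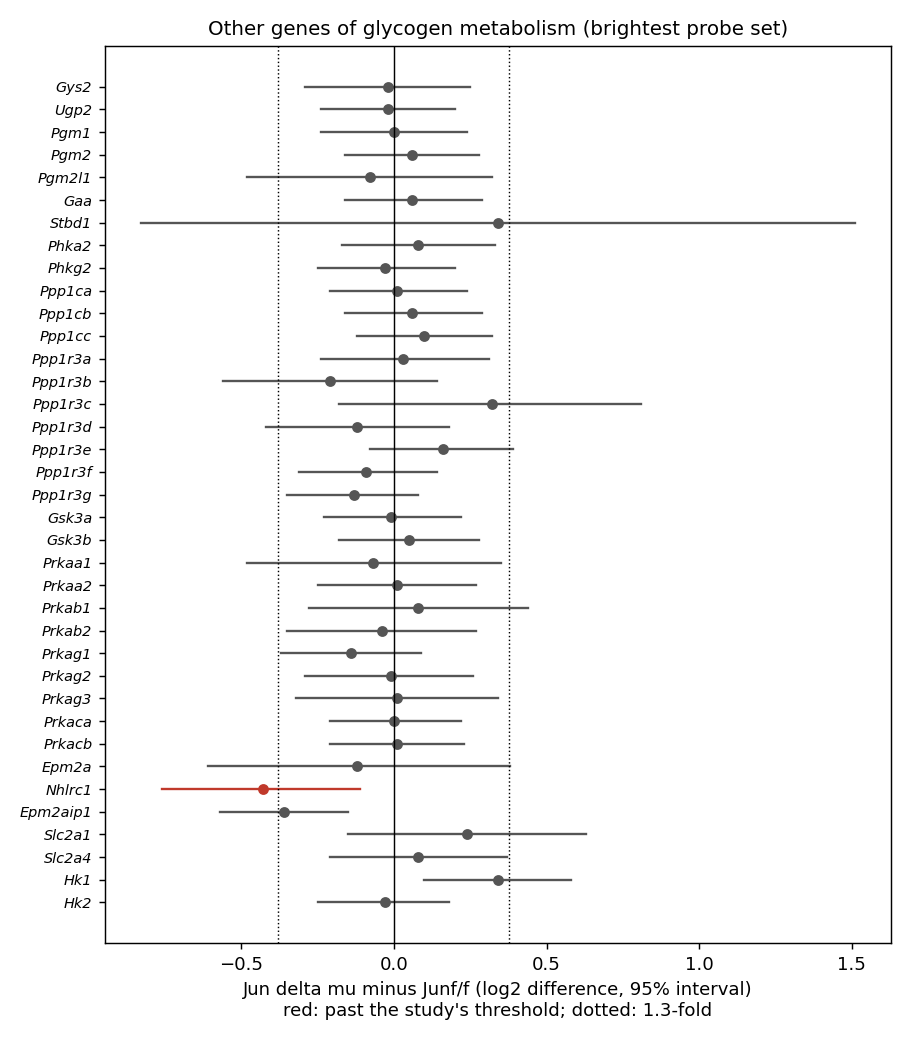
Difference of Jun delta mu minus Junf/f hearts (log2) of 37 other genes of glycogen metabolism, by the brightest probe set of each gene, with 95% intervals and dotted lines at 1.3-fold (n = 2 per genotype). Nhlrc1, in red, at -0.43, is the gene past the study's threshold, and the points of the other 36 lie within the dotted lines.

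Across the 34945 probe sets with a single gene name, the 5 genes whose profile over the 4 arrays, each centred on its mean, lay nearest to that of Pygl were Tmprss13, Myl1, Lad1, Pm20d1 and Fam107a, at Euclidean distances of 0.11 to 0.29 on the log2 scale. Tmprss13, a serine protease of the cell membrane, had 5.57 and 5.31 in Jun delta mu hearts, against 4.40 and 4.54 in Junf/f hearts. Its Junf/f values and that of Jun delta mu replicate 2 lie below the median of the array. Myl1, which encodes an alkali light chain of myosin in fast fibres, differed by 1.04, Lad1, a protein of anchoring filaments, by 0.98, Pm20d1, an enzyme that makes N-acyl amino acids, by 0.68, and Fam107a by 0.68. The 5 genes were picked for likeness to Pygl, so that their higher values in Jun delta mu hearts follow from the choice. None is a gene of glycogen metabolism on the list, and with 4 arrays many profiles lie close to each other.

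On GRCm38, Pygl lies on chromosome 12 from 70190815 to 70227683, Pygm on chromosome 19 from 6384408 to 6398464 and Pygb on chromosome 2 from 150786796 to 150831748. None of the 4 nearest measured genes on either side of Pygl passed the threshold. On the side of lower coordinates these were Map4k5 at -0.21, Atl1 at -0.20, Sav1 at -0.06 and Nin at 0.20, and on the other side Trim9 at 0.10, Tmx1 at -0.12, Gm32219 at 0.21 and Frmd6 at -0.01. Trim9, the nearest, at 16.9 kb, had 4.94 and 4.92 in Jun delta mu hearts, against 4.80 and 4.85 in Junf/f hearts, below the median of the array. Within 5 Mb, 61 other genes were measured, and 4 of them passed, or 6.56%, all as lower, against 1.45% of 18193 genes in either direction and 0.786% as lower. These were Gm31679 at -0.42, Pcnx4 at -0.61, Dhrs7 at -0.44 and Snapc1 at -1.18. Snapc1, a subunit of a complex for small nuclear RNA genes, lies 3.74 Mb from Pygl, and Rad51b, a recombination protein whose difference was 2.11, lies 9.07 Mb from it. The window of 5 Mb was chosen after the values were seen.

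**Figure D4:**
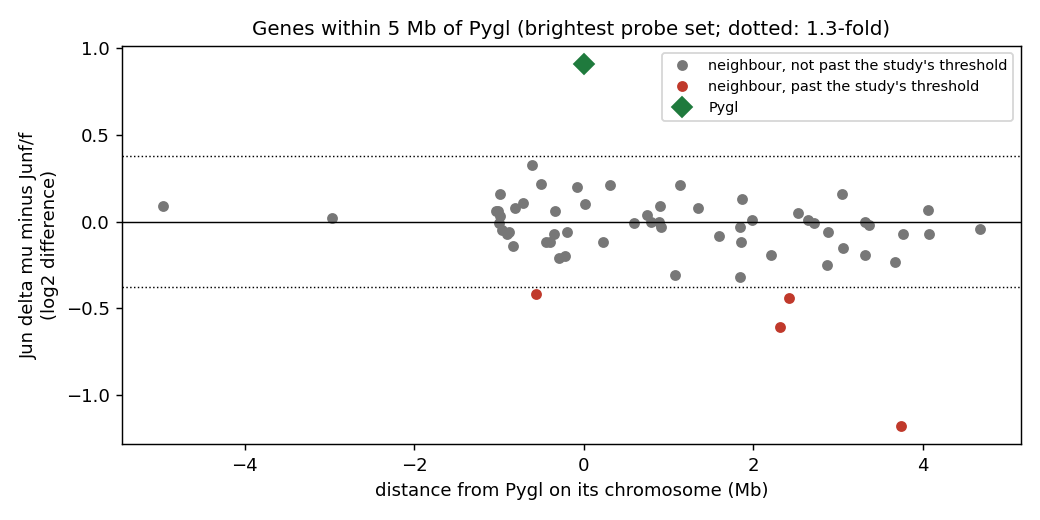
Difference of Jun delta mu minus Junf/f hearts (log2) of Pygl (green diamond, 0.91) and of 61 genes within 5 Mb of it (circles), by distance in Mb, with the brightest probe set per gene and dotted lines at 1.3-fold. The 4 neighbours past the study's threshold, in red, all lie below 0, and none of the nearest 8 is among them.

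c-Jun is known to bind AP-1 motifs. The RefSeq promoter windows of the 9 genes on GRCm38.p6, from 250 bases before to 50 bases after the start of each gene, were searched on both strands for an AP-1 and a related motif, neither of which contains the other. None of the 9 windows held TGANTCA, where N is any base, against 7.81% of 32851 windows of the same length, and none held the related TGACGTCA, against 1.79%. A missing match says only that these letters are not in the window. The 250 bases before the start are shown for the 3 phosphorylase genes, because Pygl passed the threshold and Pygm and Pygb did not. Capitals mark the E-box CANNTG, the general motif of basic helix-loop-helix factors, which was chosen after the values were seen. It was in 72.3% of all windows and in 7 of the 9 here, with 3 matches in the window of Pygm and none in those of Pygl and Pygb. A match is a description and not a site shown to be bound.
Pygl, chr12:70227684-70227933, minus strand: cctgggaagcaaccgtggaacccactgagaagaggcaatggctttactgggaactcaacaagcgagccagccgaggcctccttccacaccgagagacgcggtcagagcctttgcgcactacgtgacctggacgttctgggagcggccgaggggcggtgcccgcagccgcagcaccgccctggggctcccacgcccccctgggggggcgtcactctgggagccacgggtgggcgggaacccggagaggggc
Pygm, chr19:6384158-6384407, plus strand: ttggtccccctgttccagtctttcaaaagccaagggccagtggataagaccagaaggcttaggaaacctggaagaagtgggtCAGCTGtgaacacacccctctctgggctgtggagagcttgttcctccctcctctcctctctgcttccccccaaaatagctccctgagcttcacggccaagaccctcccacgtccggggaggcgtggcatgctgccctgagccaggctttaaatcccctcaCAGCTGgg
Pygb, chr2:150786546-150786795, plus strand: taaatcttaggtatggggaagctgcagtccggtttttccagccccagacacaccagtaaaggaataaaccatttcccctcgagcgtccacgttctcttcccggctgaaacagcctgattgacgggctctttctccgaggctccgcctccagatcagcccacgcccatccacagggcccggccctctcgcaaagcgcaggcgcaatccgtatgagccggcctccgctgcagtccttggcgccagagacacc

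GC content of the full windows was 67.0% for Pygl, 58.7% for Pygm and 60.7% for Pygb.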

How the data were processed

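Per the methods, the authors extracted total RNA with TRIzol, labelled it and hybridized it to Affymetrix mouse expression arrays. The submitters' processing notes name RMA and the R package oligo, and the methods name the AGCC software. The deposited log2 signals are RMA summaries of 45101 probe sets on each of 4 arrays, with 0 missing, for which the authors' RMA step covers background and normalization. RMA compresses differences of dim probe sets. Control probe sets, 64 in number, were dropped. The platform annotation names 1 gene for 34945 of the other 45037 probe sets, several for 932 and none for 9160. Genes were matched by identifier to RefSeq on GRCm38.p6.

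Genotype was the term of a linear model per probe set in limma 3.58.1, R 4.3.3 (lmFit, eBayes, two-sided, Benjamini-Hochberg over 45037 probe sets). Differences are Jun delta mu minus Junf/f. With 2 arrays per genotype and 2 residual degrees of freedom, the number of arrays limits the precision. The p-values, standard errors and intervals of limma combine the spread between these hearts with a spread estimated over all probe sets. The procedure was tested on simulated data whose spread was drawn from limma's own estimate over all probe sets. Such a test checks the code and not whether that estimate suits these hearts. Genes with several probe sets were counted by the one with the highest mean. Contrasts between phosphorylase forms were tested by exact permutation of the arrays.

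The members and lists were chosen with earlier results of these data known. Named are all members, pathway genes past the threshold and up to 4 more of each group, markers beside Pygl, the 5 nearest profiles and the 4 nearest genes on each side of a member that passed. Some listed genes are not reported here. Alternatives were the methods' t-test, a block for replicate number, an eBayes prior with trend and robust fitting, removal of the lowest 40% of signals, quantile and cyclic loess normalization, a median of the probe sets per gene and leaving out each array. Background correction and slide could not be varied from these values.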

Additional observations from a re-analysis of the deposited data

How the results depend on the processing

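Pygl was the one member past the study's threshold under each of the 10 alternatives run, with differences of 0.83 to 0.98 when single arrays were left out, and no member reached an adjusted p under 0.05 in any of them. Adjusted p of Pygl ranged from 0.271, without Junf/f replicate 2, to 1. Directions near 0 turned when an array was left out: Pygm ran from -0.03 (without Junf/f replicate 1) to 0.07, the brighter probe set of Gys1 from -0.03 (without Jun delta mu replicate 2) to 0.17, the dimmer one of Gyg from -0.11 to 0.01 (without Jun delta mu replicate 2), the dimmest of Phka1 from -0.19 to 0.06 (without Junf/f replicate 1), and Phkb from -0.12 (without Junf/f replicate 2) to 0.13, with -0.06 without Jun delta mu replicate 2. The unadjusted limma p of the brighter probe set of Phkg1, 0.0418, was 0.0656 with a replicate block, 0.053 with a trended robust prior, and 0.0396 to 0.192 without single arrays. The count over all probe sets was 688. It was 200 by the methods' t-test, and without single arrays it ran from 739 to 3452, with 3452 reached without Junf/f replicate 2. The count of pathway genes past the threshold was 1 in limma, 0 by the methods' t-test, and 1 to 3 without single arrays. Without Jun delta mu replicate 2, Stbd1 passed at 1.03 in place of Nhlrc1. Without Junf/f replicate 1, Ppp1r3b and Slc2a1 passed, at -0.38 and 0.45, and without Junf/f replicate 2, Hk1 and Ppp1r3c passed beside Nhlrc1, at 0.41 and 0.61. Nhlrc1 failed the threshold with that t-test, at -0.43, without Jun delta mu replicate 2, at -0.35, and without Junf/f replicate 1, at -0.30. The causes were not tested. Where 1 array of a genotype remained, it was assumed to vary like the other group. Replicate numbers paired no arrays in the labels, and deviations of same-numbered arrays from their group means correlated at 0.028. With replicate as a block Pygl passed at 0.91 and Nhlrc1 at -0.43, the contrasts of the forms were 0.88, 0.84 and 0.04 (exact p = 0.5 for each, the smallest that 2 pairs allow), and 683 probe sets passed in all.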

Other observations

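Ppp1r3c and Stbd1, glycogen genes not described above, were chosen after their values were seen, for arrays of 1 genotype that lay far apart. Ppp1r3c, a subunit that brings protein phosphatase 1 to glycogen, had 12.28 and 12.36 in Jun delta mu hearts, against 11.71 and 12.30 in Junf/f hearts by its brighter probe set. The other probe set had 10.63 and 10.70 in Jun delta mu hearts, against 10.04 and 10.69 in Junf/f hearts, so that Junf/f replicate 1 was the low array on both. Stbd1, a protein that anchors glycogen to membranes, had 7.43 and 6.05 in Jun delta mu hearts, against 6.08 and 6.71 in Junf/f hearts, and its difference of 0.34 had a 95% interval of -0.83 to 1.51.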
